A study of Mus musculus with 20 samples.

Results

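The cells described here are the Gpr17-high cells of the neonatal mouse dentate gyrus (DG), selected on their Gpr17 count in the P5 scRNA-seq library. A cell belonged to them if it held at least 3 unique molecular identifiers (UMIs, each standing for 1 captured RNA molecule) of Gpr17 and at most 1 UMI in all of the cycling genes Mki67, Top2a and Cdk1. Cells entered with a minimum of 1000 UMIs and 500 detected genes, and with no more than 10% of their UMIs from mitochondrial genes. Of 13684 such P5 cells 367 met the rule, or 2.68% (exact binomial 95% interval 2.42 to 2.97). The 3 scRNA-seq libraries of the series hold 21832 such cells in all. The comparison cells were 2354 P5 cells with at least 1 UMI of Pdgfra, at least 4 UMIs summed over Pdgfra, C1ql1, Lhfpl3 and Matn4, and at most 2 UMIs of Gpr17. These are genes of the oligodendrocyte precursor cell (OPC).

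OPCs are dividing glial cells that carry the PDGF receptor Pdgfra and the proteoglycan NG2, the product of Cspg4. When an OPC commits to differentiation it leaves the cell cycle, loses Pdgfra and passes through a short stage marked by the orphan G protein-coupled receptor Gpr17, the secreted factor Bmp4 and the choline phosphodiesterase Enpp6, before it makes the proteins of myelin such as Mbp. In the hippocampus of the newborn mouse most cells of this lineage are still OPCs and little myelin has formed.

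All cells came from C57BL/6 mice of the Nestin-EGFP line, in which EGFP is driven by Nestin regulatory sequence and marks neural stem cells and their progeny. The paper reports that other cells, such as vascular cells, were also among the EGFP+ cells. The sort alone does not show the origin of the Gpr17-high cells. The DG was dissociated with papain at P5, 12 weeks (12w) or 24 weeks (24w), and viable EGFP+ cells were sorted, with gates drawn on cells of WT mice. Each age has 1 scRNA-seq library and P5 also has a scATAC-seq library, so no difference below has a replicate error, no test was run, and the intervals are exact 95% intervals for counting error only. How many animals went into a library was not given in the sources used here. The P5 cells held both Xist (488 CPM) and genes of the Y chromosome (115 CPM), the 12w cells held 1741 CPM of Xist and 0 UMIs of the Y genes, and the 24w cells 0.280 and 145.5 CPM, so that age and sex cannot be told apart in the adult libraries.

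The Gpr17-high cells had a median of 5081 UMIs and 2238 genes against 3321.5 UMIs and 1746.5 genes in the comparison cells, and pooled they held 2117446 and 9697816 UMIs. Because a threshold in UMIs picks deeper cells, levels are given on the counts-per-million scale (CPM, UMIs of a gene pooled over cells and divided by all their UMIs) and shares of cells also after thinning each cell to 2000 UMIs. The doublet caller marked 14.2% of the Gpr17-high cells, 12.8% of the comparison cells and 6.81% of all P5 cells, and 42 Gpr17-high cells (11.4%) held UMIs of both Xist and a Y gene. No Gpr17-high cell shared its barcode with a Gpr17-high cell of another library, while 98 cell barcodes were common to P5 and 12w and 63 to P5 and 24w.

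The threshold did not fall in a gap of the Gpr17 distribution. The median was 4 UMIs and the highest 23. At the threshold stood 152 cells with exactly 3 UMIs, and just outside it 412 cells without cycling genes had 2. A further 106 cells with at least 3 UMIs were left out because they held over 1 UMI of the cycling genes. As a background, 6.55% (5.29 to 8.01) of 1343 P5 cells with neuronal markers held at least 1 UMI of Gpr17 (median 5474 UMIs per cell). In 812 cells with vascular markers the share was 7.39%. Gpr17-high and comparison cells had been left out of both groups, which lowers these shares. At least 3 UMIs were held by 0.298% (0.0812 to 0.761) and 0.616%. After that selection only cells with over 1 UMI of the cycling genes could reach 3, so these values cannot give the background at the threshold.

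The label of committed precursors held for a part of the cells only. Sox10, the transcription factor of the whole oligodendrocyte lineage, was detected in 72.2% of them and Pllp, the membrane protein plasmolipin, in 85.3%, against 52.7% and 72.7% of the comparison cells. After thinning the shares were 45.3% and 35.5% for Sox10 and 55.6% and 52.9% for Pllp. The levels differed little: Sox10 stood at 305.6 CPM (282.5 to 330.0) against 211.5 (202.4 to 220.8), and Pllp at 502.5 CPM against 394, or log2 ratios of 0.53 and 0.35. At least 1 UMI of Pdgfra, which a committed precursor has lost, was detected in 253 of the 367 cells (68.9%) and at least 3 UMIs in 44.4%. At least 1 was held by 10.4% of cells with neuronal and 12.7% of cells with vascular markers. These 2 shares are lowered by the selection, since comparison cells, which all hold Pdgfra, had been left out. Either Bmp4 or Enpp6 was detected in 129 cells, while the other 238 held neither. They are therefore called Gpr17-high cells here, and the 129 and the 238 cells are also described apart.

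Among the Gpr17-high cells the committed genes went with the Gpr17 count. Bmp4 was detected in 13.8% of the 152 cells with 3 Gpr17 UMIs, in 22.0% with 4, in 33.3% with 5 to 6, in 73.5% with 7 to 9 and in 97.4% of the 39 cells with 10 or more. For Enpp6 the shares ran from 9.87% at 3 UMIs to 66.7% at 10 or more. Pdgfra went the other way, from 85.5% (78.9 to 90.7) to 17.9% (7.54 to 33.5). The last interval includes the 10.4% and 12.7% of cells with neuronal and vascular markers, shares that leaving out the comparison cells had lowered. In the cells just outside, with 2 Gpr17 UMIs, Bmp4 was detected in 5.10% and Pdgfra in 87.9%. Median depth was 4346.5 UMIs per cell at 3 UMIs of Gpr17 and 7683 at 10 or more. In this order of raw counts, Pdgfra was thus detected least often in the group with the highest median depth.

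**Figure D1:**
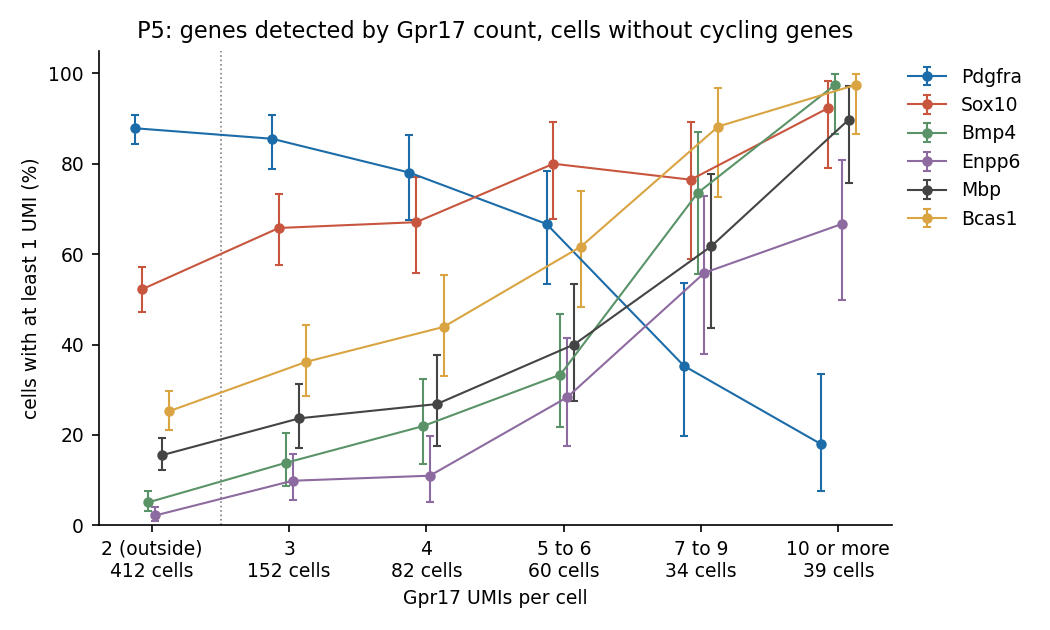
Share of P5 cells with at least 1 UMI of a gene (vertical axis, percent, with exact binomial 95% intervals) by the Gpr17 UMIs of the cell (horizontal axis), for cells with at most 1 UMI of the cycling genes. Left of the dotted line are the 412 cells with 2 UMIs, outside the rule. From 3 UMIs to 10 or more, Bmp4 goes from 13.8% to 97.4% and Pdgfra from 85.5% to 17.9%.

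When the 367 cells were instead ordered by the share of Gpr17 in their UMIs and cut into 5 parts of 73 or 74 cells, part of this order was lost. From the lowest part to the highest, Bmp4 stood at 168, 244, 324, 305 and 652 CPM, but the cells with a UMI of it numbered 27, 21, 23, 18 and 33, with no rise over the first 4 parts. Enpp6 showed no order (165 and 169 CPM at the ends). Pdgfra stood at 289, 567, 555, 626 and 431 CPM and was detected in 53, 58, 52, 53 and 37 cells. Mbp stood at 3610 CPM in the lowest part and 1106 in the highest, and Mag, an adhesion protein of myelin, at 110.8 and 7.50 CPM. Median depth fell along this order from 8572 to 2792 UMIs, the reverse of the first. Mbp and Mag thus stood highest in the part with the deepest cells, and whether Pdgfra falls with Gpr17 depends on which order is used.

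Most genes of the committed stage were higher in the Gpr17-high cells. Of 11024 genes with an expected 10 UMIs or more in the smaller set, 215 (1.95%) were at least 2-fold higher in the Gpr17-high cells and 376 (3.41%) at least 2-fold lower, with a median log2 ratio over all genes compared of -0.07. When cells with 2 or more UMIs of Mag, Mog and Mobp (32 Gpr17-high and 3 comparison cells) were left out of both sets, 127 of 10654 genes (1.19%) were higher and 267 (2.51%) lower, and with the 3 comparison cells alone left out, 218 of 11013 (1.98%) and 379 (3.44%). Of the 21 genes compared in a list of committed precursor and newly formed oligodendrocyte genes, other than Gpr17 itself, 16 were at least 2-fold higher and 0 lower, with a median log2 ratio of 2.33. That list, like the others below, holds genes known from this lineage and was chosen with results of these data known.

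The largest differences were in genes hardly detected in the comparison cells. Enpp6 stood at 154 CPM (138 to 172) against 2.48 (1.59 to 3.68), a ratio of 62.2 (41.1 to 98.5). Of the 24 Enpp6 UMIs in comparison cells all but 7 lay in 3 cells with late genes, and without these 3 cells the comparison level was 0.724 CPM and the ratio 213 (102 to 533). With late-gene cells left out of both sets Enpp6 stood at 74.6 against 0.724 CPM. Bmp4 stood at 295.6 CPM (272.9 to 319.7) against 6.91 (5.35 to 8.77), a ratio of 42.8 (33.2 to 55.9). The non-coding transcript 9530059O14Rik had the highest log2 ratio of the named genes, 6.09, with 144 against 2.06 CPM, or 0.931 CPM without the 3 cells. Without them its log2 ratio was 7.194, below the 7.635 of Enpp6. After thinning to 2000 UMIs, Bmp4 was detected in 26.2% (21.6 to 31.2) of 340 Gpr17-high cells and 1.19% (0.749 to 1.80) of 1845 comparison cells, and Enpp6 in 15.6% and 0.271%, with 27 and 509 shallower cells left out. Unthinned, these shares were 33.2% and 1.91% for Bmp4 and 23.4% and 0.425% for Enpp6. Others of the 12 most raised genes were Tmem88b (log2 ratio 5.17), the adhesion molecule Epcam (4.69), the synaptic organizer Cbln2 (4.57), 1700047M11Rik (4.30) and the G protein subunit Gng4 (4.02), which stood between 24.1 and 51.5 CPM in the Gpr17-high cells.

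Other committed genes were already present in the comparison cells at a lower level. Bcas1, a protein of newly forming oligodendrocytes, stood at 791 against 68.1 CPM (log2 ratio 3.54), the sialidase Neu4 at 132 against 20.2 (2.71), the tubulin deacetylase Sirt2 at 1591 against 236 (2.75), the Src family kinase Fyn at 1031 against 188 (2.45) and Tcf7l2, a transcription factor of the differentiating stage, at 155 against 30.8 (2.33). Members of the list below 2-fold were Mpzl1 (0.91), Tmem163 (0.83), the tetraspanin Cd9 (0.57), Rras2 (0.39) and Tmem2 (-0.31). Lims2, at 490 against 100.4 CPM, overlaps the Gpr17 gene, so reads of one could have been counted for the other.

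Of 14 myelin genes compared, 7 were at least 2-fold higher and 0 lower, with a median log2 ratio of 1.09. Mbp, which compacts the myelin sheath, stood at 2315 CPM (2250 to 2380) against 86.3, a ratio of 26.8 (24.9 to 28.9). The 3 comparison cells with late genes held all but 394 of the 837 Mbp UMIs of that set, and without them the comparison level was 40.7 CPM and the ratio 56.8 (51.3 to 63.1). With late-gene cells left out of both sets, Mbp stood at 832 against 40.7 CPM (ratio 20.4, 18.3 to 22.9). The median of the list was then 0.71, over the genes still compared, which did not include Mag. In the main setting Ugt8a (1.45) and Trf (0.72) stood at the middle of the 14 genes. Leaving out Mag alone would put that median at Trf. Mag (5.42), the tight junction protein Cldn11 (4.10), the phosphodiesterase Cnp (3.07), the gap junction protein Gjc3 (2.17) and the galactolipid enzyme Ugt8a (1.45) were also higher. Mag, which helped to choose the late-gene cells, stood at 72.7 against 1.65 CPM, or 0.620 without the 3 comparison cells, which moved its ratio from 44.1 to 117 (52.7 to 324). With late-gene cells left out of both sets Mag had too few UMIs to be compared, and the log2 ratios were 3.01 for Cldn11, 2.46 for Cnp, 1.69 for Gjc3 and 0.99, short of 2-fold, for Ugt8a. The late genes Mog, Mobp, Opalin, Mal, Ermn, Aspa, Gpr37 and Evi2a had too few UMIs to be compared. At least 1 UMI of Mbp was detected in 138 of the 367 Gpr17-high cells (37.6%) and in 14.3% of the comparison cells, or in 29.4% and 8.02% after thinning. Its UMIs were unevenly spread. The median Gpr17-high cell held 0 and the highest 411, and the top 10% of the cells held 89.3% of its UMIs. At least 2 UMIs of Mag, Mog and Mobp together were found in 32 of the Gpr17-high cells and in 13 P5 cells with Gpr17 at 2 UMIs or fewer.

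The OPC genes were lower on the median, but few by 2-fold. Of the 16 compared that the rule did not use, 3 had a log2 ratio above 0, 1 was at least 2-fold higher (the matrix protein Tnr, 445 against 169 CPM) and 1 at least 2-fold lower (the ubiquitin ligase Lnx1, 34.9 against 73.2 CPM), with a median of -0.35. Cspg4 stood at 103 against 161 CPM (log2 ratio -0.63), Cspg5 at 1487 against 2361 (-0.67) and the phosphatase Ptprz1 at 1477 against 1760 (-0.25). The genes of the comparison rule itself were at 469 against 871 CPM for Pdgfra, 702 against 789 for C1ql1, 264 against 361 for Lhfpl3 and 398 against 450 for Matn4.

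Among 30 lineage transcription factors, 2 were at least 2-fold higher and 0 lower, with a median log2 ratio of -0.11. They were Myrf, the activator of the myelin genes, at 56.2 CPM (46.6 to 67.3) against 4.23 (3.03 to 5.73), and Nkx2-2, which acts at the onset of differentiation, at 147 against 59.4. Olig2, the determinant of the lineage, stood at 729 against 767 CPM (-0.07) and Olig1 at 1778 against 2420 (-0.44). Hes5 (-0.47) and Hes1 (-0.84), effectors of Notch, and Sox9 (-0.52) and Nfib (-0.66), factors of glial progenitors, had lower values within 2-fold. In the 18 Wnt, BMP and Notch feedback genes 0 were at least 2-fold higher and 1 was lower, the Wnt effector Lef1 at 2.83 against 8.87 CPM, with a median of -0.36. Lef1 rested on 6 UMIs in the Gpr17-high cells. With late-gene comparison cells left out its ratio was 0.319 (0.114 to 0.722).

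**Figure D2:**
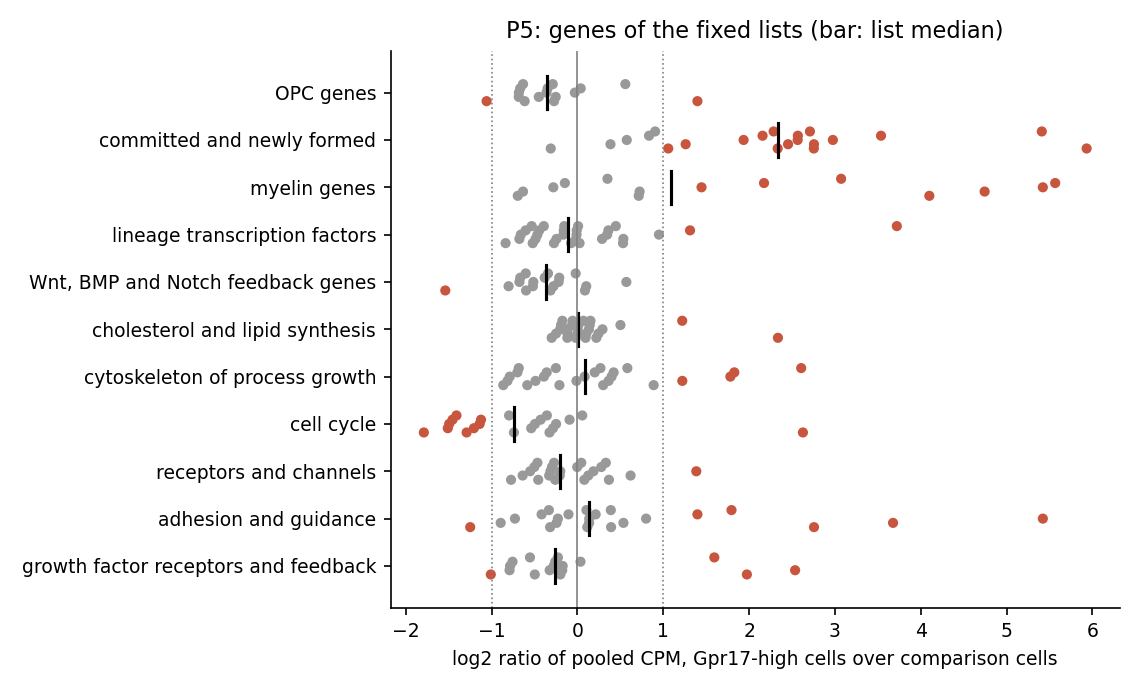
Log2 ratio of pooled CPM in the 367 Gpr17-high cells over the 2354 comparison cells (horizontal axis) for each gene compared of the 11 lists (rows), without the genes of the rule. Red points are past 2-fold (dotted lines) and bars are list medians. The committed list has its median at 2.33 and 16 of 21 genes past 2-fold, and the myelin list 7 of 14.

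The cell cycle list was mostly lower, which the rule in part fixes, since 332 of the comparison cells (14.1%) but none of the Gpr17-high cells had over 1 UMI of the cycling genes. Of 21 genes compared, 9 were at least 2-fold lower, among them cyclin B1, Ccnb1, at 20.8 against 72.6 CPM. When the comparison set was held to 2022 cells with at most 1 UMI of these genes, 1 of the 21 was at least 2-fold lower (Cdkn1a, with 1.89 CPM in the Gpr17-high cells), and over all 10908 genes then compared 220 (2.02%) were higher and 217 (1.99%) lower. Cdkn1c, the cell cycle inhibitor p57, was at least 2-fold higher in both: 106 CPM (log2 ratio 2.63) and 2.53 against the cells without cycling genes. The 12 most lowered named genes were for the most part mitotic, such as Top2a (a gene of the rule), Prc1 (log2 ratio -3.03) and Hmmr (-3.01). The chemokine Cxcl12, the cytokine Tgfb1, the collagen processing protein Pcolce and the phosphodiesterase Pde5a are not mitotic genes. They rested on 1 or 2 UMIs in the Gpr17-high cells, with ratios of 0.0288 (0.000725 to 0.163) for Cxcl12, 0.0705 (0.00176 to 0.407) for Tgfb1, 0.108 (0.0128 to 0.401) for Pcolce and 0.109 (0.0130 to 0.406) for Pde5a. Fibroblast genes (Col1a1, Col1a2, Col3a1, Dcn and Lum, a list added after the values were seen) summed to 10.9 CPM in the Gpr17-high cells, with Lum at 0, and 34.8 CPM in the comparison cells, of which 20 held 3 or more of their UMIs. Their part in these values was not tested.

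Most of the machinery for membrane synthesis was not different by 2-fold. Of 26 genes of cholesterol and lipid synthesis, 2 were higher and 0 lower, with a median log2 ratio of 0.01, whose sign changed with the settings. Both act on the galactolipids of myelin: Fa2h, which hydroxylates their fatty acids, at 70.8 against 14.0 CPM, and the sulfotransferase Gal3st1 at 155 against 66.7. Of 25 genes of the cytoskeleton 4 were higher and 0 lower: the tubulin Tubb4a (401 against 65.8 CPM), the dynein light chain Dynll2 (639 against 180), the microtubule protein Map1b (322 against 93.5) and Arpc1b, a subunit of the actin nucleating complex (70.8 against 30.4). The median of that list was 0.08, and it fell below 0 in some settings.

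In the 23 adhesion and guidance genes, 5 were higher and 1 lower with a median of 0.14. Beside Mag and Tnr these were Nfasc, neurofascin, at 243 against 36.0 CPM, and the semaphorin Sema4d with its receptor family member Plxnb3, at 29.3 against 8.46 and 57.1 against 4.43 CPM. L1cam was the gene lower by 2-fold, at 3.78 against 9.49 CPM. It rested on 8 UMIs in the Gpr17-high cells. With late-gene comparison cells left out its ratio was 0.397 (0.167 to 0.816). Over all genes compared, 1.95% were at least 2-fold higher and 3.41% lower. Of 23 glutamate and GABA receptors and channels, 1 was higher, the lysophosphatidic acid receptor Lpar1 at 16.1 against 6.19 CPM, and 0 were lower, with a median of -0.21 that turned to 0.049 after thinning. Of 17 growth factor receptors and feedback genes other than Pdgfra, 3 were higher (Rasgef1b, Tns3 and Pik3r3) and 1 lower, the feedback inhibitor Spry1 at 43.0 against 86.9 CPM, with a median of -0.26 that turned to 0.0078 in cells with Y genes only.

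RNA of other cell types, apart from ependymal cells, was at like or lower levels in the Gpr17-high cells. The 7 astroglial markers summed to 3036 CPM (2962 to 3111) against 3108 (3073 to 3143) in the comparison cells and 5637 in all P5 cells. The 8 neuronal markers summed to 212.5 against 322.5 CPM, the 7 vascular ones to 173 against 388, and the 6 microglial ones to 1.89 against 13.5, with Cx3cr1, C1qc and Csf1r at 0. The 3 ependymal markers summed to 45.8 against 34.1 CPM and the 4 globins to 62.3 against 103. Aqp4, the water channel of astrocytes, was detected in 31.3% of the Gpr17-high cells, 25.0% of the comparison cells, 24.7% of cells with neuronal markers and 32.0% of cells with vascular markers. At least 3 UMIs of it were held by 13.1% (9.80 to 17.0), 7.39% (6.37 to 8.52), 6.40% (5.15 to 7.85) and 8.99% (7.11 to 11.2) of these cells, in the same order. After thinning, 17.9% of the Gpr17-high and 18.3% of the comparison cells held at least 1 UMI.

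The 129 Gpr17-high cells with a UMI of Bmp4 or Enpp6 and the 238 with neither differed in a larger share of genes than the Gpr17-high and comparison cells did. The 2 shares are not strictly alike, because the pools held 1005724 and 1111722 UMIs here and 2117446 and 9697816 there. Smaller pools have more counting error, which can raise the count of genes past 2-fold. This split was chosen after the values were seen and follows detection, which depends on depth (medians 7611 and 4140.5 UMIs). Pdgfra was detected in 26.4% (19.0 to 34.8) of the former and 92.0% (87.8 to 95.1) of the latter. Median Gpr17 was 6 and 3 UMIs. The doublet caller marked 8.53% and 17.2%. Of 8908 genes compared, 449 (5.04%) were at least 2-fold higher in the 129 cells and 1243 (14.0%) at least 2-fold lower, with a median log2 ratio of -0.17.

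In the 129 cells the OPC genes were low. The median log2 ratio over the 238 cells was -1.75 for 16 OPC genes, of which 11 were at least 2-fold lower, 2.30 for 19 committed genes other than Bmp4 and Enpp6, of which 17 were at least 2-fold higher, and 1.98 for 13 myelin genes. Pdgfra stood at 85.5 CPM in the 129 cells, 816 in the 238 and 917 in the comparison cells without cycling genes. Cspg4 stood at 23.9, 175 and 170 CPM in the same order, and Ptprz1 at 736, 2147 and 1840. Bcas1 stood at 1561, 93.6 and 75.9 CPM, Fyn at 1957, 193 and 197, and Myrf at 110.4, 7.20 and 4.72. For each of these genes the 238 cells lay near the comparison cells and the 129 cells apart. For Pdgfra the comparison level is in part set by the rule, which required a UMI of it in each comparison cell. Sox10, at 371, 246.5 and 222 CPM, and Olig2, at 724, 733 and 809, differed less between the 3 sets. Receptor and channel genes had a median of -1.20 in the 129 cells over the 238, with 13 of 22 at least 2-fold lower.

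Apart from Gpr17 itself, the 238 cells were close to non-cycling OPC-like comparison cells. Of 9422 genes compared, 26 (0.276%) were at least 2-fold higher and 50 (0.531%) lower. The highest was Gpr17 (818.5 against 179 CPM), which the rule used, followed by the teneurin Tenm1 (23.4 against 8.26 CPM). Neu4 was among the 26, at 51.3 against 22.8 CPM, and Tcf7l2 was short of 2-fold at 54.0 against 33.4. Mbp stood at 36.0 against 102 CPM. When the comparison cells with a UMI of Bmp4 or Enpp6 were left out too, as for the 238, Mbp stood at 36.0 against 44.5 CPM (ratio interval 0.568 to 1.13), and 27 of 9434 genes (0.286%) were higher and 48 (0.509%) lower. The median log2 ratio was 0.06 for the OPC list, 0.23 for the committed list and 0.03 over the genes compared. That Bmp4 and Enpp6 are at 0 in these cells follows from the split.

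**Figure D3:**
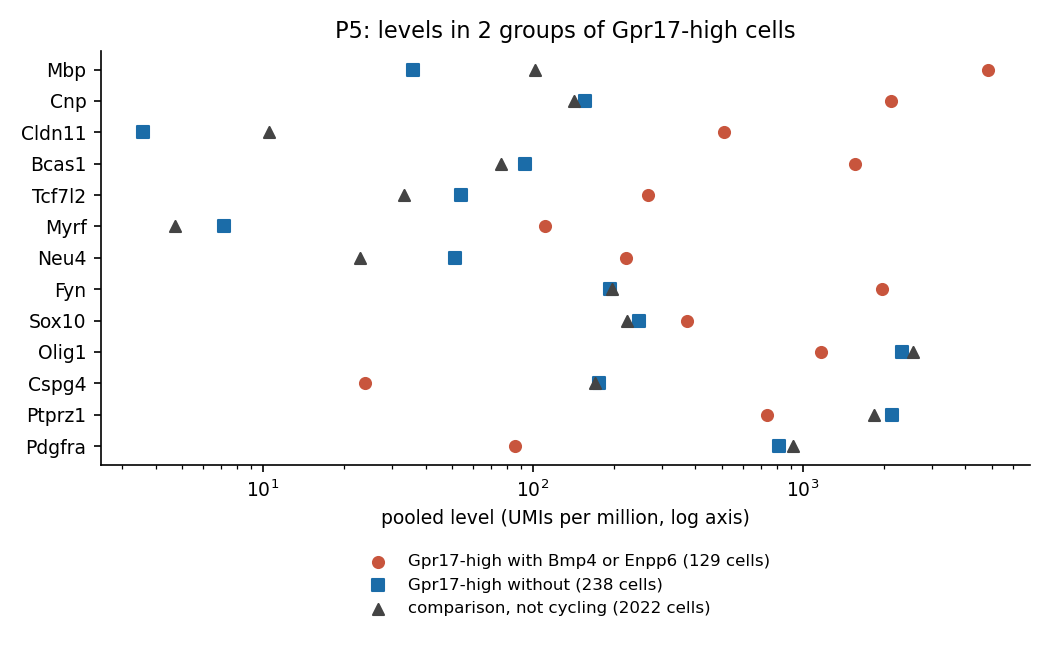
Pooled level of 13 genes (horizontal axis, CPM, log axis) in the 129 Gpr17-high cells with a UMI of Bmp4 or Enpp6 (circles), the 238 without (squares) and the 2022 comparison cells without cycling genes (triangles). Bcas1 stands at 1561, 93.6 and 75.9 CPM and Pdgfra at 85.5, 816 and 917 CPM, so that for these genes squares and triangles lie together and circles apart. The rule required Pdgfra in each comparison cell, so its triangle is in part set by the rule.

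Outside the Gpr17-high cells, 13 P5 cells with at most 2 UMIs of Gpr17 held late genes. Bmp4 stood at 296 CPM in the Gpr17-high cells and 579 (443 to 744) in the 13 late cells. Enpp6 stood at 154 and 617 CPM (476 to 787 in the late cells). The late cells have little Gpr17 by their selection, and many Gpr17-high cells hold neither gene. In Gpr17-high cells with 7 to 9 UMIs of Gpr17, Bmp4 stood at 766 CPM and Enpp6 at 273. With 10 or more they stood at 718 (629 to 817) and 290 (234 to 355). Enpp6 was thus higher in the late cells than in any of these sets, while Bmp4 was not.

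The same rule found 25 Gpr17-high cells of 5351 at 12w (0.467%, 0.303 to 0.689) and 11 of 2797 at 24w (0.393%, 0.197 to 0.703). Comparison cells numbered 26 and 9. Of both sets together the Gpr17-high cells made up 13.5% (12.2 to 14.8) in the P5 library. At 12w they made up 49.0% (34.8 to 63.4) and at 24w 55.0% (31.5 to 76.9). Median depth over all filtered cells was 4383.5 UMIs in the P5 library, against 2289 (12w) and 2178 (24w). A fixed cut in UMIs picks deeper cells, and the P5 share fell when the rule was applied after thinning to 2000 UMIs. How far depth makes these shares differ between libraries was not tested. The joint shares count cycling comparison cells (332, 0 and 1, in order of age) but no cycling Gpr17-high cells. Bmp4 or Enpp6 was detected in 18 of the 25 cells at 12w and in 9 of the 11 at 24w, against 129 of 367 at P5, and Pdgfra in 8 and in 2 cells.

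Mbp in the Gpr17-high cells stood at 2315 CPM at P5. It stood at 12135 CPM (11584 to 12706) in the 12w cells and 9134 CPM (8510 to 9792) in the 24w cells. Bmp4 stood at 296, 1000.2 and 817 CPM and Enpp6 at 154, 600.1 and 460 CPM. Bcas1 stood at 791, 1094 and 1576 CPM, and Pdgfra at 469, 180 and 23.0 CPM. Late-gene cells made up 32 of the 367 Gpr17-high cells at P5, 9 of the 25 at 12w and 7 of the 11 at 24w, and held 15.8%, 51.7% and 81.5% of their UMIs. With such cells left out at each age, Mbp stood at 832 CPM (790.5 to 876) at P5 and 2694 (2330 to 3100) in the 16 cells left at 12w, and Pdgfra at 546 (512 to 581) and 373 (246 to 543), intervals that overlap. Bmp4 stood at 256 (233 to 280.3) and 1119 (889 to 1391) CPM. Only 4 cells were left at 24w, of which 2 held Mbp. For the P5 cells with Bmp4 or Enpp6 alone, Mbp was at 4833 and Pdgfra at 85.5 CPM. Over the committed genes that could be compared at both ages, the median log2 ratio to the comparison cells was 3.59 at 12w for 18 genes (2.39 for the same genes at P5) and 3.60 at 24w for 12 genes (2.51 at P5). Without late-gene cells it was 2.33 at 12w for 13 genes, against 2.09 for the same genes at P5. Vascular markers summed to 934 CPM at 12w and 2289 at 24w in the Gpr17-high cells against 173 at P5, with 2 to 3 of the 7 at 0 in the adult cells. The comparison cells of the adult libraries also held more fibroblast RNA, 609 CPM at 12w and 1341 at 24w against 34.8 at P5. Their part in the age values was not tested.

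**Figure D4:**
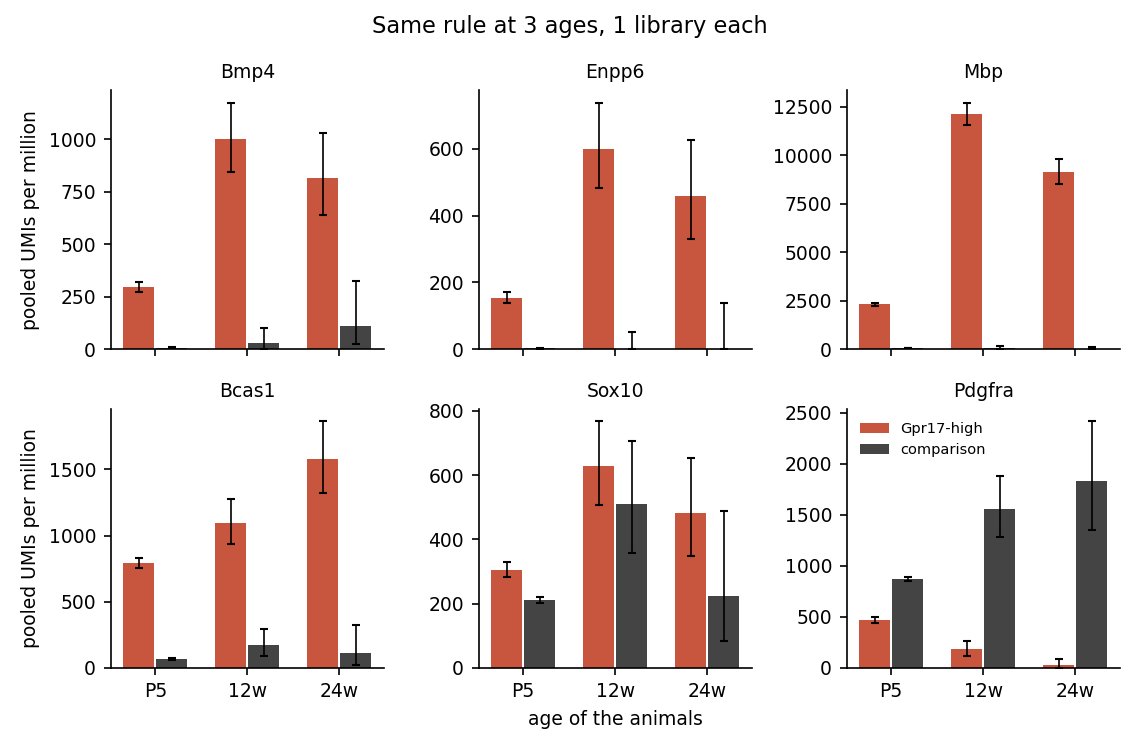
Pooled level (vertical axis, CPM, with exact Poisson 95% intervals) of 6 genes in Gpr17-high cells (red) and comparison cells (black) of the P5, 12w and 24w libraries. Cells number 367, 25 and 11 among the Gpr17-high and 2354, 26 and 9 among the comparison cells. Mbp goes from 2315 CPM at P5 to 12135 at 12w, and Pdgfra from 469 to 180, where late-gene cells are 32 of the 367 and 9 of the 25 cells.

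The P5 scATAC-seq library gives the chromatin of the same sorted population, in other cells. Of 8788 nuclei with 3000 to 100000 counts, 1597 had at least 2 counts at each of the loci of Sox10, Olig1 and Olig2. In 788 of these the Gpr17 locus held at least 4 counts, and in 248 it held 0 while Pdgfra held at least 4. The 788 of 1597 nuclei are a larger share than the 367 Gpr17-high cells of 2721 Gpr17-high and comparison cells (13.5%). They therefore cannot be read as the nuclei of Gpr17-high cells alone. A locus is the gene body with 2 kb upstream, and its level is again given as CPM, here of all counts in peaks. Median counts were 39108.5 and 37065.5 per nucleus. Of 19341 genes with enough counts and no peak shared with those loci, 676 (3.50%) were at least 1.5-fold higher in the nuclei with an open Gpr17 locus and 1034 (5.35%) at least 1.5-fold lower, with a median log2 ratio of 0.05.

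Most of the gene lists had medians above that of all loci compared, which was 0.045. The highest was that of the glutamate and GABA receptors and channels, at 0.37 for 26 genes with 5 at least 1.5-fold higher. The median log2 ratio was 0.26 for 19 OPC genes, with 5 at least 1.5-fold higher, 0.15 for 21 committed genes, with 3 higher, 0.25 for 19 myelin genes, with 5 higher, and 0.13 for 24 cell cycle genes, with 0 higher. None of these lists had a locus 1.5-fold lower. Cspg4 held 303 CPM against 172 (ratio 1.76, 1.67 to 1.85), Bcas1 120 against 73.4, Bmp4 39.9 against 25.9, Neu4 32.8 against 20.5 and Enpp6 19.1 against 14.2. Fyn and Tcf7l2, at ratios of 1.07 and 0.953, were nearly alike in both. Tubb4a had one of the higher ratios, 29.9 against 15.9 CPM. The loci of the 210 genes at least 2-fold higher in RNA had a median log2 ratio of 0.16, and those of 361 lower genes 0.07. The RNA and locus contrasts are unlike, since the nuclei were not chosen on RNA. The RNA of Cspg4 was lower in the Gpr17-high cells (103 against 161 CPM). Aqp4 held 15.5 against 30.9 CPM, and 26.3 in the 7191 nuclei outside the lineage set. Those 7191 nuclei held 135.8 CPM at Cspg4, 66.45 at Bcas1, 29.73 at Bmp4, 12.77 at Neu4 and 11.85 at Enpp6. At each of these loci they stood nearer to the nuclei without Gpr17 counts than to those with an open Gpr17 locus. How far the nuclei without Gpr17 counts belong to the lineage was not tested.

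**Figure D5:**
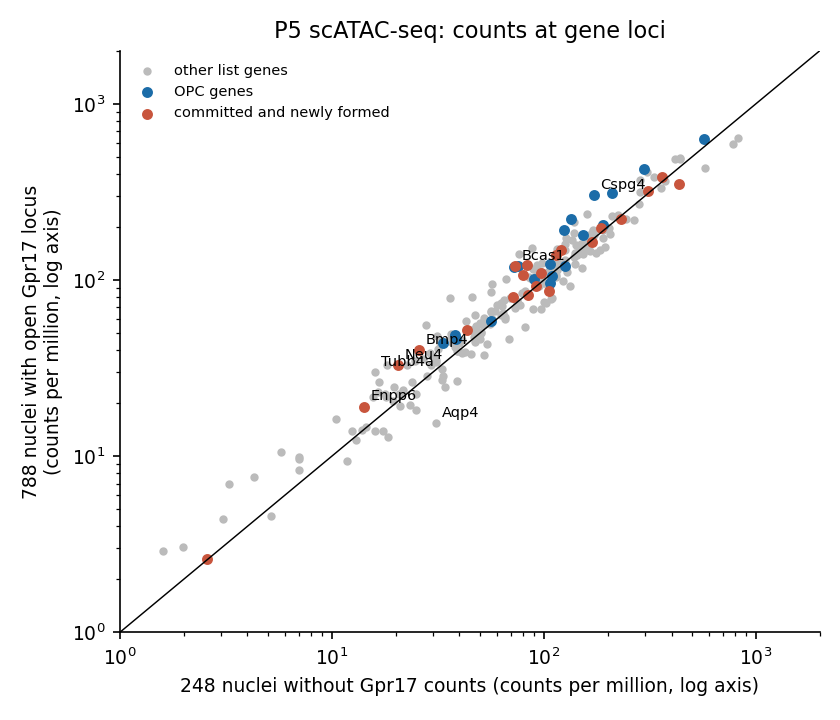
Level (CPM) at the loci of the list genes in the 788 nuclei with at least 4 counts at Gpr17 (vertical, log axis) against the 248 with none (horizontal, log axis), with the line of equal levels. OPC genes (blue) and committed genes (red) both lie mostly above the line, with Cspg4 at 303 against 172 and Bcas1 at 120 against 73.4. Nuclei outside the lineage set, not drawn, held 135.8 and 66.45 CPM at these loci.

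Promoter sequences were taken from RefSeq (build GRCm38.p6, the files' mm10), running from 250 bases before to 50 after the gene start, to show what lies at genes that mark the committed cells. Cnp and Nkx2-2 have a P5 peak over the promoter and Enpp6 has none. The letters ACAAAG and ACAATG, read by SOX factors, and the E-boxes CAGATG and CAGCTG, of the kind read by OLIG factors, were searched on both strands and are in capitals.

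Cnp (chr11:100574689-100574988, + strand): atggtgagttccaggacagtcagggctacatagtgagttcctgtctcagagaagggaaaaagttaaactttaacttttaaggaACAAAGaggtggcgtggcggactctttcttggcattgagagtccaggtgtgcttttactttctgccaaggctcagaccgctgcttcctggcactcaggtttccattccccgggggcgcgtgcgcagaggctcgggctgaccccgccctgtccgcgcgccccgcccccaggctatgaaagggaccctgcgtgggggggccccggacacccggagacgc

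Nkx2-2 (chr2:147186353-147186652, - strand): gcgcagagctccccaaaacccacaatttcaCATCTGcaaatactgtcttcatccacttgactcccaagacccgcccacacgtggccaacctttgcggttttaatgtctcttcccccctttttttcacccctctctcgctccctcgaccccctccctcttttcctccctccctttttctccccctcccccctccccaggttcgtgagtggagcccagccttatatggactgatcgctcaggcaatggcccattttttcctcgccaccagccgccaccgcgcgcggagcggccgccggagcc

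Enpp6 (chr8:46986637-46986936, + strand): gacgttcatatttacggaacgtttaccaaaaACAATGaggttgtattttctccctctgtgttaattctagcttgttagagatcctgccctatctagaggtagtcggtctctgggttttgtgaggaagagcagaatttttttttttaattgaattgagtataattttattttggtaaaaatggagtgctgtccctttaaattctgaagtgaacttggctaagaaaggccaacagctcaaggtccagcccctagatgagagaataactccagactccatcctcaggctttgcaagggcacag

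The Cnp promoter holds 1 match to the SOX letters under a peak that spans 100574489 to 100576622, with 34.6 CPM in the nuclei with an open Gpr17 locus and 25.3 in those without. Nkx2-2 holds 1 E-box under a peak from 147183732 to 147190988, with 80.6 against 64.6 CPM. The Enpp6 promoter holds 1 SOX match and no peak, so its locus counts come from peaks elsewhere in the gene body or in the 2 kb upstream. Unlike the sequences printed above, the promoters of Neu4 (20.4 against 10.4 CPM) and Tubb4a (29.3 against 15.1) lie under peaks and hold neither motif. The same holds for Bmp4 (39.9 against 25.9 CPM) and for Cldn11. The Cldn11 peak was lower in the nuclei with an open Gpr17 locus (10.3 against 12.7 CPM). Over the genes higher by 2-fold with a sequence, 51 of 163 (31.3%) held a SOX match and 57 (35.0%) an E-box, against 22.7% and 27.8% of 8472 genes compared and 31.7% and 33.4% of all 27025 genes. A peak lay over the promoter of 153 of the 163 (93.9%) and of 98.4% of the genes compared.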

How the data were processed

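The submitters' processing notes name Cell Ranger 2.2.0, Seurat 4.1.0 and the mm10 build. The authors deposited unnormalized counts: UMIs of each gene in each scRNA-seq barcode, and the count in each scATAC-seq peak by barcode. The adult scATAC-seq tables and the tables of cultured cells were not used here. Software was Python 3.11.15, scipy 1.17.1, numpy 2.4.6, pandas 2.3.3 and matplotlib 3.10.9. Doublets were called with scrublet in scanpy 1.11.5 (932 of 13684 P5 cells) and were kept in the main values. UMIs were pooled over cells. Log2 ratios have 0.5 UMIs added, or 1 count for loci, and genes had to have an expected 10 UMIs in the smaller set (20 counts for loci). A gene was called at 2-fold, a locus at 1.5-fold. CPM have exact Poisson, shares exact binomial (Clopper-Pearson) and ratios exact conditional binomial 95% intervals. They cover counting error only. Pooled depth was 2117446 UMIs in Gpr17-high and 9697816 in comparison cells, so 10 UMIs are a few CPM. Because each age is 1 library, no test was run and no p-value is given.

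The named genes are those of the rule and the markers, the 12 most raised and 12 most lowered with at least 50 UMIs in the higher set and the same direction in cells with Xist only and with Y genes only, and the fixed lists. The members, the lists and this rule were chosen with earlier results of these data known. Gene positions are from GENCODE vM21 (GRCm38), found for 27645 of 27998 genes. Some members of the lists are not reported here by name. The planned likeness of genes to Gpr17 over 5 sets of P5 cells is not reported, since Gpr17 counts define most of these sets and several levels rest on 1 or 2 UMIs. The pooling and the intervals were tested on simulated data. Alternatives were other Gpr17 thresholds, folds and count minimums, thinning, doublets left out, non-cycling comparison cells, cells with Sox10, cells of 1 sex and scaling to the median gene, and, chosen after seeing the data, fibroblast-gene or late-gene cells left out.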

Additional observations from a re-analysis of the deposited data

Results flagged for a closer look

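Fabp5, a fatty acid binding protein, had opposite directions in the neonatal and both adult libraries. It was lower in the Gpr17-high cells at P5 by a log2 ratio of -0.20 (1307 against 1503 CPM, ratio 0.870, 0.835 to 0.906) and higher at 12w (640 against 170 CPM, ratio 3.77, 2.06 to 7.54) and at 24w (886 against 149 CPM, ratio 5.94, 2.23 to 22.4). The difference was not tested. The adult values rest on 25 and 11 Gpr17-high cells and on 12 and 4 UMIs in the comparison cells. Late-gene cells held 51.7% and 81.5% of the UMIs of these Gpr17-high cells at 12w and 24w, against 15.8% at P5. Adult Fabp5 was not recomputed without them. The adult comparison cells also held more fibroblast RNA, and age and sex cannot be told apart in the adult libraries.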

How the results depend on the processing

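The share of P5 cells that are Gpr17-high, 2.68%, was 5.69% with at least 2 UMIs of Gpr17, 0.972% with 5, 0.285% with 10 and 0.912% when the rule was applied after thinning to 2000 UMIs. The count of genes at least 2-fold higher, 215, was 569 at 1.5-fold, 102 at 3-fold, 392 with an expected count of 3 and 108 after thinning. The count of lower genes, 376, was 1147, 103, 658 and 154 under the same settings, 744 with at least 5 UMIs of Gpr17, 685 with 10 and 217 against non-cycling comparison cells. Thinning tests fewer genes (7866).

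Over the 14 settings, the main one included, list medians of log2 ratios ran from 1.77 to 2.98 for committed, 0.71 to 2.08 for myelin and -1.65 to -0.17 for OPC genes. The genes compared differ between settings, so a median can also move when a gene drops out of its list. The lipid, cytoskeleton, receptor and growth factor medians changed sign in some settings. With at least 5 UMIs of Gpr17 the medians were -0.81 for OPC, 2.83 for committed and 1.84 for myelin genes. With 10 they were -1.65, 2.98 and 1.46, with -0.55 for transcription factors, -1.08 for Wnt, BMP and Notch, -0.24 for lipid, 0.41 for cytoskeleton, -1.44 for cell cycle, -1.35 for receptors and channels and -1.16 for growth factor genes. Against non-cycling cells the cell cycle median was -0.32. After thinning, the committed and myelin medians were 2.01 and 0.79. Myelin was at 2.07 in cells with Sox10. In cells with Xist only, the medians were 2.62 (committed), 2.08 (myelin), -0.33 (transcription factors) and -0.80 (growth factor), and in cells with Y genes only -0.51 (OPC), 1.71 (myelin) and -0.071 (cytoskeleton). In settings added after the data were seen, myelin was at 1.42 without fibroblast-gene cells, and OPC and myelin at -0.56 and 1.66 without these, cycling cells and doublet calls together. With late-gene cells left out of both sets, 127 genes were higher and the OPC, committed and myelin medians were -0.17, 1.77 and 0.71, the last without Mag.

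Of 324 log2 ratios of named genes recomputed, 82 left the counting interval and 1 changed sign, C1ql1 from -0.17 to 0.0058 with late-gene cells left out of both sets. Locus medians ran from 0.19 to 0.36 for OPC, 0.15 to 0.23 for committed and 0.19 to 0.27 for myelin genes. No paired analysis was possible because each age is 1 library. Counting intervals do not cover differences between mice, and with 25 and 11 adult cells the age values are coarse.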
